A study of Arabidopsis thaliana with 6 samples.

Results

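The loci described here are the annotated loci of 3 pericentromeres of Arabidopsis thaliana, the gene-poor, transposon-rich stretches on either side of a centromere. They were chosen by locus number: AT2G09000 to AT2G12999 except AT2G10606 on chromosome 2, AT3G30000 to AT3G33999 on chromosome 3 and AT5G29000 to AT5G34999 on chromosome 5. This gave 1369 of the 32420 loci of the table, with 394 on chromosome 2, 500 on chromosome 3 and 475 on chromosome 5. The rule holds no measured value. Small RNAs bound to ARGONAUTE1 (AGO1) were isolated with an AGO1 antibody from the aerial parts of plants that were 20 days old and untreated, grown on medium for 6 days and then on soil for 14. The 3 genotypes were the double mutant ein5 dcl4 (alleles ein5-1 and dcl4-2), the triple mutant ein5 dcl4 dcl2 (with dcl2-1 in addition) and the wild type Col-0, with 2 libraries each, which the design text calls biological. Both mutants share the ein5 and dcl4 mutations, so the samples used here hold no single mutant and no dcl2 mutant with intact EIN5 and DCL4.

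Pericentromeric transposons and their remnants are kept silent in plants by DNA methylation, which small interfering RNAs (siRNAs) guide only in part. Most of these siRNAs are cut by DCL3 and loaded onto AGO4 and its close relatives, while AGO1 mainly carries miRNAs and siRNAs that act on mRNA. DCL4 and DCL2 cut siRNAs from other double-stranded RNA, DCL2 giving the longer kind, and EIN5, an exonuclease of the cytoplasm also known as XRN4, clears uncapped mRNA that could otherwise become a template for siRNAs. The comparisons therefore ask how AGO1-bound small RNA from these regions stands when EIN5 and DCL4 are lost, and when DCL2 is lost as well.

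Several members hold an annotated mature miRNA sequence, among them AT3G30110, which has 1 of the largest gains described below. The mature sequences (RefSeq, assembly TAIR10.1) are printed with bases 2 to 8, the seed, in capitals; the letters are those of the DNA strand that matches the RNA.
miR854a (chr5:11847721-11847741, plus strand): gATGAGGAtagggaggaggag
miR855 (chr2:4674433-4674454, plus strand): aGCAAAAGctaaggaaaaggaa
miR8183 (chr3:11747799-11747819, minus strand): tTTAGTTGacggaattgtggc
The 3 seeds differ, so no pair of these miRNAs falls into 1 seed group. The 5 annotated miR854 genes, MIR854a to MIR854e, have the same mature sequence, and each lies inside a member on chromosome 5. The same 21 bases were found in 9 members in all, each on the member's own strand, and in 1 of 30378 loci outside the members. The miR855 sequence was found in 7 members, against 6 of the 30378 other loci, and miR8183 in 1 member and in 0 other loci.

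The miR854 sequence sits in a repeat that these members share. In 4 of them it reads as follows, with the mature sequence in capitals and 20 bases on each side, each in the strand of the member.
AT5G32228 (holds MIR854a, chr5:11847701-11847761, plus strand): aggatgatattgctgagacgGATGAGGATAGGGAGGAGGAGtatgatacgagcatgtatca
AT5G29975 (holds MIR854b, chr5:11324548-11324608, minus strand): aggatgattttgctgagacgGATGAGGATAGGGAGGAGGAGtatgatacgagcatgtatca
AT5G32107 (holds no annotated miRNA gene, chr5:11814282-11814342, minus strand): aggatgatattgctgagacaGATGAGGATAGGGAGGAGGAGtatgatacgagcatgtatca
AT2G09187 (holds no annotated miRNA gene, chr2:3640391-3640451, minus strand): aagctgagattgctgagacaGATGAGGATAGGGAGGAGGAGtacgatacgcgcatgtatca
Of the 40 flanking bases, 34 to 40 were the same as in the window of AT5G32228 over all 9 members. A small RNA from 1 copy can thus match several of them, and their values are not independent.
The miR8183 sequence lies within AT3G30110, in the strand of that locus.
AT3G30110 (holds MIR8183, chr3:11747779-11747839, minus strand): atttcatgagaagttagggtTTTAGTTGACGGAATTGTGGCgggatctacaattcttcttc

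RefSeq held a record for 1344 of the 1369 members and lists 1054 of them as pseudogenes, 95 as transcribed pseudogenes and 195 as protein-coding. Transposon families were not analysed here. The first member started and the last ended at chr2:3639603-5342694, chr3:11746725-14132041 and chr5:11021980-13274842. The median member was 1839 bases long with 41.6% GC. Repeats were common: a median of 60.3% of the 21-base stretches of a member occurred once in the genome, against 98.9% for the 30378 other loci with a record. At least 1 such stretch was shared with another member by 948 members (70.5%). Neighbouring pseudogenes on chromosome 2, AT2G12810, AT2G12830 and AT2G12840, share 85.6% to 98.1% of their 21-base stretches pair by pair. In the Col-0 libraries they held 85 and 62, 84 and 54, and 90 and 57 reads, so near-copies had similar but not equal counts. How reads that match several loci were placed is not stated in the sources used here.

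Each value is the small RNA of a locus in the deposited units and no measure of its mRNA. How much small RNA a locus makes and how much of it AGO1 loads cannot be told apart, nor can fewer cells of a type and less RNA per cell. Recovered libraries held 836879 to 1292727 reads, and 1 read was worth 1.92 and 2.79 units in ein5 dcl4, 1.71 and 1.90 in ein5 dcl4 dcl2 and 0.185 and 0.257 in Col-0. The libraries of a genotype are called a and b. A count of 3 reads, the limit that a count of 0 allows for counting error alone, came to 5.75 and 8.37 units in ein5 dcl4, 5.12 and 5.70 in ein5 dcl4 dcl2 and 0.555 and 0.770 in Col-0, so low members are measured least precisely in the mutants. EIN5 itself held 0 and 1 reads in ein5 dcl4, 0 and 0 in ein5 dcl4 dcl2 and 26 and 5 in Col-0, and DCL2 at most 2 reads in any library; small RNA at these loci does not measure their mRNA and so does not check the genotypes.

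Small RNA from the pericentromeres was lower in ein5 dcl4 than in Col-0 on chromosomes 2 and 5 and higher on chromosome 3, where 2 genes made the difference. On chromosome 2 the members summed to 1997 and 1763 units in ein5 dcl4, 2195 and 2263 in ein5 dcl4 dcl2 and 2503 and 2535 in Col-0. On chromosome 5 they summed to 3780 and 3609 units in ein5 dcl4, 3979 and 3901 in ein5 dcl4 dcl2 and 5270 and 5375 in Col-0. Each genotype's libraries lay apart from those of the other genotypes, with Col-0 highest and ein5 dcl4 lowest. The ratio of ein5 dcl4 to Col-0 was 0.746 on chromosome 2 and 0.694 on chromosome 5, and that of ein5 dcl4 dcl2 to ein5 dcl4 was 1.19 and 1.07.
On chromosome 3 the sums were 14857 and 12516 units in ein5 dcl4, 3839 and 3954 in ein5 dcl4 dcl2 and 4599 and 4714 in Col-0. ERD5 and BR6OX2 held 79.0% of the ein5 dcl4 sum, 0.119% of the ein5 dcl4 dcl2 sum and 0.0174% of the Col-0 sum. Without these genes chromosome 3 held 2873 ± 167 units in ein5 dcl4, 3892 ± 77.5 in ein5 dcl4 dcl2 and 4656 ± 82.1 in Col-0 (SD, n = 2 each), which is the order seen on the other chromosomes. Over all 3 chromosomes, again without both genes, the sums were 8448 ± 454 units in ein5 dcl4, 10060 ± 70.3 in ein5 dcl4 dcl2 and 12497 ± 179 in Col-0 (SD, n = 2 each). The ratios were 0.676 for ein5 dcl4 to Col-0, 1.19 for ein5 dcl4 dcl2 to ein5 dcl4 and 0.805 for ein5 dcl4 dcl2 to Col-0. For each of these sums the exact two-sided permutation test over libraries gave p = 0.333, the smallest that 2 libraries against 2 allow.

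**Figure D1:**
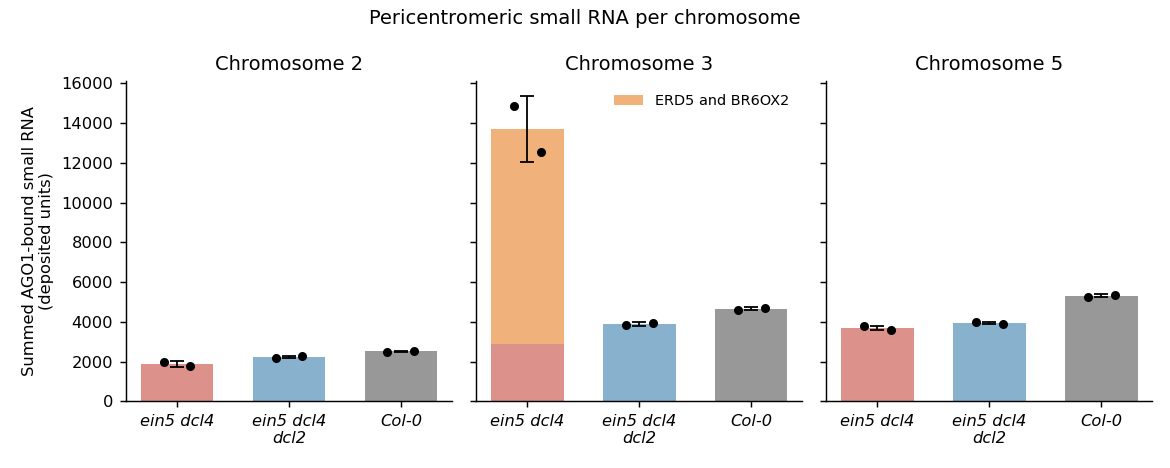
Summed AGO1-bound small RNA of the pericentromeric loci of chromosomes 2, 3 and 5 in deposited units (y axis) for ein5 dcl4, ein5 dcl4 dcl2 and Col-0 (x axis). Bars are means of 2 libraries, points the libraries and error bars the SD; the orange part of the chromosome 3 bars is ERD5 and BR6OX2, which hold 79.0% of the ein5 dcl4 sum and are too small to see in the other genotypes.

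The size of these differences depends on the scale of the deposited values. In recovered reads, the members without ERD5 and BR6OX2 held 4579 and 2914 in ein5 dcl4, 5860 and 5321 in ein5 dcl4 dcl2 and 66811 and 49194 in Col-0. As a share of all reads of the table that was 0.351% ± 0.00425 in ein5 dcl4, 0.581% ± 0.0704 in ein5 dcl4 dcl2 and 5.31% ± 0.245 in Col-0 (SD, n = 2 each). Both mutants were thus far below Col-0 on the scale of shares, at ratios of 0.0661 and 0.109, and closer to it in deposited units, at ratios of 0.676 and 0.805. A share also falls when other loci gain. With the 10 largest loci of the table left out of its total, the log2 ratio of the shares of ein5 dcl4 dcl2 to Col-0 was -2.00 on chromosome 2 and -2.26 on chromosome 5, against -3.06 and -3.32 with them, and that of ein5 dcl4 to Col-0 was -3.52 and -3.62, against -3.78 and -3.88. With libraries scaled to equal miRNA totals the order of the genotypes did not hold. The log2 ratio of the sums of ein5 dcl4 to Col-0 was then 0.23 on chromosome 2 and 0.12 on chromosome 5, with libraries that overlapped, that of ein5 dcl4 dcl2 to ein5 dcl4 was -3.81 and -3.96, and that of ein5 dcl4 dcl2 to Col-0 was -3.58 and -3.84.

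The 2 genes that set chromosome 3 apart are protein-coding genes and not transposon remnants. ERD5 (AT3G30775, chr3:12448636-12451556, minus strand), which codes for proline dehydrogenase, the mitochondrial enzyme that starts the breakdown of proline, held 11337 and 9309 units in ein5 dcl4, 1.71 and 7.60 in ein5 dcl4 dcl2 and 0.370 and 0.257 in Col-0. In reads that was 5920 and 3338, 1 and 4, and 2 and 1. Both ein5 dcl4 libraries thus stood far above all others, and the other groups held at most 4 reads in a library. BR6OX2 (AT3G30180, chr3:11810726-11813883, plus strand), the oxidase that makes the last step of brassinosteroid hormone synthesis, held 529 and 452 units in ein5 dcl4, no read in ein5 dcl4 dcl2 and 0.741 and 0.257 units in Col-0. Against Col-0 both genes were called higher in ein5 dcl4 (limma adjusted p 0.000387 for ERD5 and 0.000298 for BR6OX2) and lower in ein5 dcl4 dcl2 than in ein5 dcl4 (0.000546 and 0.000270). Of their 21-base stretches 99.7% and 98.7% are unique, so reads of other loci add little.

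Of 933 members tested one by one, ein5 dcl4 had 8 called higher and 124 called lower than Col-0. The test was limma on log2(units + 1), fitted over all loci that averaged 1 unit or more and called at a Benjamini-Hochberg adjusted p under 0.05. Of all 11376 loci tested, 38.7% were called higher and 6.45% lower. The median log2 difference was -0.70 for the members and 1.49 for all loci. The filter is in units, and 1 read is worth more units in ein5 dcl4 than in Col-0. A locus with few reads can thus pass through ein5 dcl4 alone and must then come out higher there. The shares and medians of all loci are partly set by this filter. The other 801 tested members passed in neither direction, and 436 members were not tested, 73 of them with no read in any library. By chromosome, 5 members were higher and 36 lower on chromosome 2, 3 and 47 on chromosome 3, and 0 and 41 on chromosome 5, where 2 were higher at an unadjusted limma p under 0.05. The lower calls rest on low values: 66 of the 124 had 0 reads in both ein5 dcl4 libraries, and the median of their means over the libraries was 4.87 units, below what 3 reads are worth in ein5 dcl4. The lower count dropped to 1 without Col-0 library a and 0 without Col-0 library b, when 3 were higher, while 23 and 22 were higher without ein5 dcl4 library a or b. At a mean of at least 10 units 48 of 293 members (16.4%) were lower and 3 (1.02%) higher, against 16.5% lower and 34.9% higher of all 1852 such loci, so the share of lower calls was then that of all loci. The median log2 difference at that level was -0.65 for the members and -0.14 for all loci.

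**Figure D2:**
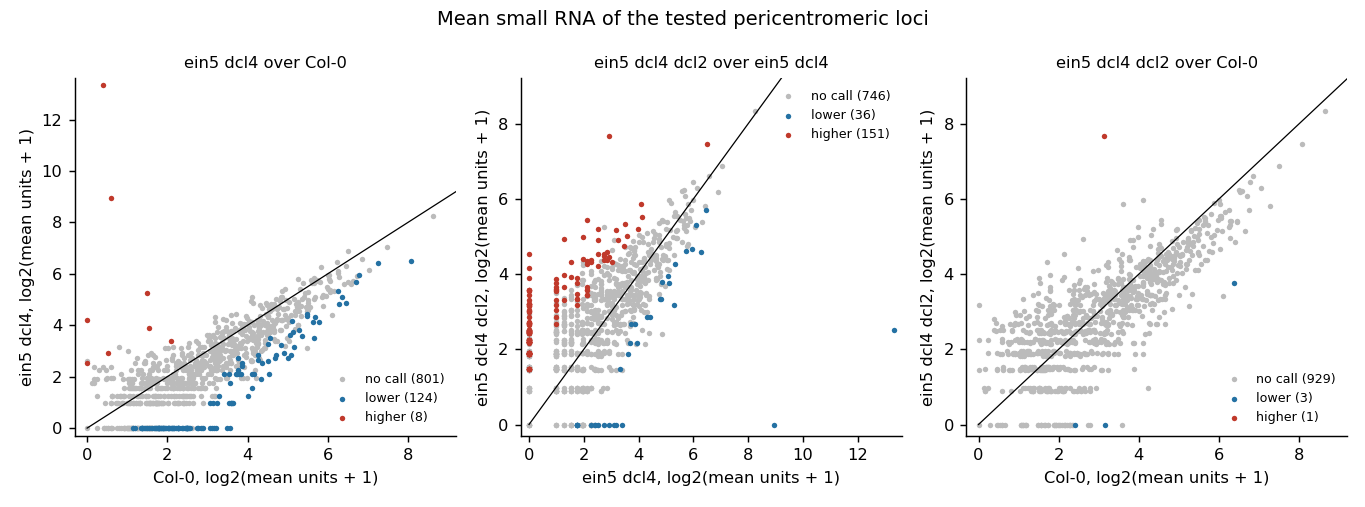
Mean small RNA of the 933 tested pericentromeric loci in each pair of genotypes, as log2(mean units + 1), with red points called higher, blue points called lower and grey points in neither direction (limma adjusted p 0.05); the line marks equality. The ein5 dcl4 against Col-0 panel shows most points under the line and 8 red points above it, with ERD5 and BR6OX2 at the top left.

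Of 71 tested protein-coding members 7 were higher (9.86%) and 15 lower (21.1%) in ein5 dcl4, and of 808 tested pseudogenes 1 was higher and 104 (12.9%) lower, so both shares of higher calls lay below the 38.7% of all loci. AT2G10940, which codes for a protein of the lipid-transfer and seed-storage family, held 30.6 and 44.6 units in ein5 dcl4, 8.54 and 7.60 in ein5 dcl4 dcl2 and 1.85 and 1.80 in Col-0. Its level in ein5 dcl4 was higher than that in Col-0 by 3.75 ± 0.34 on the log2 scale (SE, limma adjusted p 0.00225) and lower in ein5 dcl4 dcl2 than in ein5 dcl4 by 2.07 ± 0.34 (0.00807). In reads the difference from Col-0 is smaller, 16 and 16 against 10 and 7, and with equal table totals the call ended (log2 difference 0.91, limma adjusted p 0.0724).
AT2G09990, a gene of the ribosomal protein S5 family of which 68.1% of the 21-base stretches are unique, held 14 and 3 reads in ein5 dcl4, 5 and 4 in ein5 dcl4 dcl2 and 0 in both Col-0 libraries. That made 26.8 and 8.37 units in ein5 dcl4, with 8.54 and 7.60 for the triple mutant, while the count of 0 in Col-0 allows up to 0.555 and 0.770. The difference between ein5 dcl4 and Col-0 was called (limma adjusted p 0.00670), but without Col-0 library a or b the adjusted p was 0.0676 or 0.0677. Ein5 dcl4 dcl2 was not called different from ein5 dcl4 here (0.285).
The pseudogene among the higher members was SADHU1-1 (AT2G10410), a copy of the Sadhu family of non-coding retroelements. It held 13.4 and 13.9 units in ein5 dcl4, 6.83 and 3.80 in ein5 dcl4 dcl2 and 2.04 and 1.80 in Col-0, but in reads 7 and 5, 4 and 2, and 11 and 7. The call against Col-0 (limma adjusted p 0.00877) thus rests on the deposited scale: with equal table totals ein5 dcl4 was lower by 0.45 on the log2 scale and was not called. Leaving out Col-0 library a or b ended it too (limma adjusted p 0.0839 or 0.0907). The lower call of ein5 dcl4 dcl2 against ein5 dcl4 ended under 11 of the 14 alternatives tried. A pseudogene with no symbol, AT2G10405, overlaps it, and whether the counting used strand is not stated.
The remaining higher members, AT2G09970, AT2G11626 and AT3G30390, were chosen for mention after their values were seen. They held 2 and 2, 4 and 2, and 4 and 4 reads in ein5 dcl4, 0 in every ein5 dcl4 dcl2 library, and 0 and 0, 2 and 2, and 20 and 11 in Col-0. AT2G09970 had no read outside ein5 dcl4 and passed the filter through it alone, which fixed its direction. In reads AT3G30390 was higher in Col-0 than in ein5 dcl4, and at AT2G11626 these genotypes overlapped.

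Members that were lower in ein5 dcl4 included the second most abundant pseudogene. AT3G33178, a pseudogene of 6461 bases, held 99.6 and 80.9 units in ein5 dcl4, 191 and 156 in ein5 dcl4 dcl2 and 272 and 263 in Col-0. The libraries of the 3 genotypes did not overlap. It was lower in ein5 dcl4 than in Col-0 by 1.56 ± 0.22 on the log2 scale (SE, limma adjusted p 0.00632). It was higher in ein5 dcl4 dcl2 than in ein5 dcl4 by 0.94 ± 0.22 (SE, limma adjusted p 0.0225). Both calls ended without either Col-0 library. The second ended under 6 of 15 alternatives and turned to -3.06 with equal miRNA totals. AT3G33178 was also the only member that the authors' deposited table called lower in ein5 dcl4 than in Col-0, with a log2 fold change of -1.56 and an adjusted p of 0.00122, of 804 members with an adjusted p there. For ein5 dcl4 over ein5 dcl4 dcl2 the authors' log2 fold change was -0.94 and was not called (authors' adjusted p 0.0937).
AT5G31891 and AT3G30716 are pseudogenes named for the size of their difference and had 0 reads in both ein5 dcl4 libraries. AT5G31891 held 5.12 and 11.4 units in ein5 dcl4 dcl2 and 10.2 and 11.5 in Col-0, and AT3G30716 held 8.54 and 19.0 units in ein5 dcl4 dcl2 and 10.6 and 5.90 in Col-0. Their limma adjusted p against Col-0 were 0.00494 and 0.00872, and 0.0569 and 0.0849 without Col-0 library a. The other members named for the size of their difference were AT3G32904, which codes for a Myb/SANT-like protein, the pseudogene AT5G29550, and AT2G10970, an invertase and pectin methylesterase inhibitor gene. They held 1, 2 and 2 reads over both ein5 dcl4 libraries and 137, 179 and 159 reads in Col-0. Their limma adjusted p against Col-0 were 0.0223, 0.0463 and 0.0349. The calls ended under 2 of 14, 8 of 15 and 9 of 15 alternatives, among them the loss of either Col-0 library.

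Among the most abundant pseudogenes the mutants were mostly below Col-0, by varying amounts. AT5G31927, a pseudogene of 4554 bases with the highest mean, held 297 and 307 units in ein5 dcl4, 309 and 336 in ein5 dcl4 dcl2 and 397 and 395 in Col-0. It had 155 and 110, 181 and 177, and 2146 and 1541 reads. Col-0 lay above both mutants in every library, but no comparison was called (limma adjusted p 0.0955 for ein5 dcl4 over Col-0). AT5G31927 led the members in each genotype and made up 3.57% of the sum in ein5 dcl4, 3.21% in ein5 dcl4 dcl2 and 3.17% in Col-0, without ERD5 and BR6OX2.
On chromosome 3 AT3G32893 held 115 and 148 units in ein5 dcl4, 121 and 112 in ein5 dcl4 dcl2 and 167 and 189 in Col-0, and was not called in any comparison. AT3G33136 held 65.1 and 58.6 units in ein5 dcl4, 83.7 and 87.4 in ein5 dcl4 dcl2 and 111 and 105 in Col-0, and fell below Col-0 in ein5 dcl4 (log2 difference -0.80 ± 0.21, SE, limma adjusted p 0.0331). That call ended without either Col-0 library and with equal miRNA totals.
On chromosome 5 AT5G34841 held 93.8 and 75.3 units in ein5 dcl4, 63.2 and 47.5 in ein5 dcl4 dcl2 and 150 and 156 in Col-0, and fell below Col-0 in ein5 dcl4 (log2 difference -0.85 ± 0.26, SE, limma adjusted p 0.0467). That call ended under 6 of 15 alternatives, among them the loss of any 1 ein5 dcl4 or Col-0 library. AT5G29075 and AT5G34864 had lower means in both mutants than in Col-0 and were not called.
The 5 largest on chromosome 2, AT2G09187, AT2G10780, AT2G11050, AT2G11450 and AT2G12330, were not called in any comparison either. AT2G12330 held 49.8 and 69.7 units in ein5 dcl4, 68.3 and 34.2 in ein5 dcl4 dcl2 and 106 and 105 in Col-0. AT2G10780, of which 11.4% of the 21-base stretches are unique, held 72.8 and 39.0 units in ein5 dcl4, 34.2 and 53.2 in ein5 dcl4 dcl2 and 45.0 and 54.1 in Col-0, with overlapping libraries. The small RNA was spread widely: the 10 largest members held 13.4% of the sum in ein5 dcl4, 12.9% in ein5 dcl4 dcl2 and 13.2% in Col-0, and it took 94, 129 and 105 members to reach 50% of it.

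With DCL2 lost in addition, more of these loci were higher than lower. In ein5 dcl4 dcl2, 151 members were called higher and 36 lower than in ein5 dcl4, of 933 tested, against 11.3% higher and 35.9% lower over all 11376 loci. The median log2 difference was 0.42 for the members and -1.33 for all loci. Of the 4087 loci of the whole set called lower, 2812 had 0 reads in ein5 dcl4 dcl2, so the filter weighs on these values too. By chromosome 43, 64 and 44 members were higher and 13, 14 and 9 lower on chromosomes 2, 3 and 5. This comparison and that of ein5 dcl4 with Col-0 share the ein5 dcl4 libraries. Of the 151, 95 had 0 reads in ein5 dcl4, so their spread there was not measured. With only the 2 genotypes compared in the fit, 56 members were higher and 9 lower. The higher count was 55 and 57 without Col-0 library a and b and 86 without ein5 dcl4 dcl2 library b. The lower count was 11 without either Col-0 library and 67 without ein5 dcl4 library b. With equal miRNA totals 10 members were higher and 480 lower, so the direction of this comparison depends on the scale. At a mean of at least 10 units 37 members (12.6%) were higher and 23 (7.85%) lower, against 18.5% and 38.0% of all 1852 such loci, so the share of higher calls then lay below that of all loci. The median at that level was 0.09 for the members and -0.39 for all loci.

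The largest of these gains were at a few loci with almost no reads in ein5 dcl4. AT3G30110 (chr3:11746725-11748496, minus strand), a transcribed pseudogene of a storekeeper-related transcription regulator that holds MIR8183, had 7.66 and 5.58 units in ein5 dcl4, 210 and 196 in ein5 dcl4 dcl2 and 6.48 and 8.98 in Col-0. In reads these were 4 and 2, 123 and 103, and 35 and 35. Both ein5 dcl4 dcl2 libraries stood above all others, and ein5 dcl4 and Col-0 overlapped. It was higher in ein5 dcl4 dcl2 than in ein5 dcl4 by 4.75 ± 0.32 on the log2 scale (SE, limma adjusted p 0.00103) and than in Col-0 by 4.56 ± 0.32 (0.00855). The authors' deposited table gave a log2 fold change of -4.91 for ein5 dcl4 over ein5 dcl4 dcl2 with an adjusted p of 8.35e-09. With equal miRNA totals the differences were 0.87 and 1.27 and were not called (0.104 and 0.0983). Which of its reads are the miR8183 sequence printed above was not tested, since the table gives 1 value per locus.
AT3G30187, a transcribed pseudogene of a gene related to no-apical-meristem (NAC) proteins, held 0 and 2.79 units in ein5 dcl4, 30.7 and 28.5 in ein5 dcl4 dcl2 and 5.74 and 4.36 in Col-0. AT3G32050, a protein-coding gene of unknown function, held 0 in both ein5 dcl4 libraries, 30.7 and 13.3 in ein5 dcl4 dcl2 and 2.59 and 4.11 in Col-0. The pseudogene AT5G33075 held 0 in both ein5 dcl4 libraries, 18.8 and 15.2 in ein5 dcl4 dcl2 and 6.11 and 3.08 in Col-0. In deposited units both ein5 dcl4 dcl2 libraries were above the Col-0 libraries at all 3 loci as well. Yet ein5 dcl4 dcl2 was called higher against ein5 dcl4 (limma adjusted p 0.00926, 0.00330 and 0.00247) and not against Col-0 (0.199, 0.124 and 0.146). AT3G32050 and AT5G33075 were also called lower in ein5 dcl4 relative to Col-0 (limma adjusted p 0.0243 and 0.0100), calls that ended without either Col-0 library. These values rest on few reads, 11 to 18 in ein5 dcl4 dcl2 library a and 7 to 15 in library b. The Col-0 libraries held 31 and 17, 14 and 16, and 33 and 12 reads at the 3 loci. The place of ein5 dcl4 dcl2 above Col-0 thus depends on the scale. Over all 95 transcribed pseudogenes the summed units were 285 and 248 in ein5 dcl4, 637 and 621 in ein5 dcl4 dcl2 and 437 and 473 in Col-0, the only one of the 3 annotation classes in which ein5 dcl4 dcl2 lay above Col-0 in deposited units. AT3G30110 alone gave 203 ± 10.2 of the ein5 dcl4 dcl2 units and 7.73 ± 1.77 of the Col-0 units (SD, n = 2 each). The class stood above Col-0 only through this locus.

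**Figure D3:**
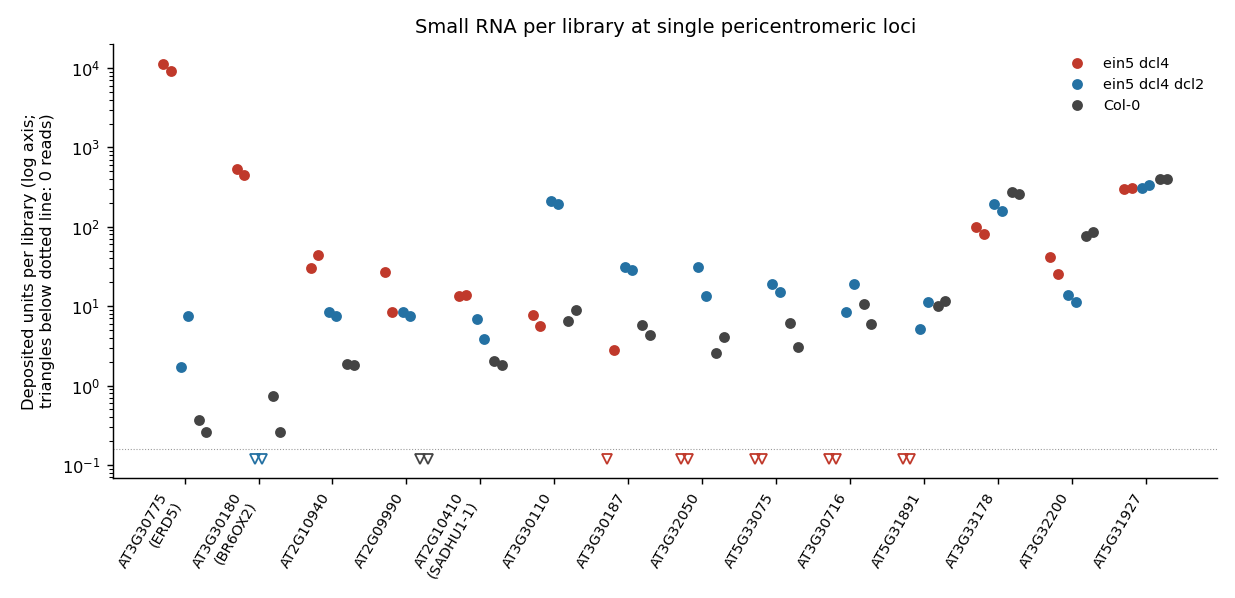
Units per library (y axis, log scale) at 14 pericentromeric loci (x axis), with 2 points for each of ein5 dcl4, ein5 dcl4 dcl2 and Col-0; open triangles under the dotted line are libraries with 0 reads. ERD5 and BR6OX2 reach 9309 to 11337 and 452 to 529 units in ein5 dcl4, and AT3G30110 reaches 196 and 210 units in ein5 dcl4 dcl2.

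Members lower in ein5 dcl4 dcl2 than in ein5 dcl4 included, besides ERD5, BR6OX2, AT2G10940 and SADHU1-1, the pseudogenes AT2G10130 and AT5G32654. AT2G10130 held 3.42 and 1.90 units in ein5 dcl4 dcl2 against 11.5 and 11.2 in ein5 dcl4, on 2 and 1 reads against 6 and 4 (limma adjusted p 0.0134). AT5G32654 held 5.12 and 1.90 units in ein5 dcl4 dcl2 against 17.2 and 11.2 in ein5 dcl4, on 3 and 1 reads against 9 and 4 (0.0306). These calls ended under 4 of 15 alternatives for AT2G10130 and 9 of 15 for AT5G32654, among them the loss of either Col-0 library. AT2G10130 and AT5G32654 were not called different between ein5 dcl4 and Col-0.

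In deposited units few members were called different between ein5 dcl4 dcl2 and Col-0, and so were few of all loci. Higher was 1 member (0.107%), AT3G30110, and 3 (0.322%) were lower, of 933 tested. Over all 11376 loci 1.08% were higher and 0.299% lower, so the share of lower calls was near that of all loci. An unadjusted limma p under 0.05 was passed by 52 and 96 members. The median log2 difference was -0.28 for the members and 0.00 for all loci. Among the lower ones AT3G32200, which codes for a myosin heavy chain-like protein, held 13.7 and 11.4 units in ein5 dcl4 dcl2 and 76.8 and 86.0 in Col-0, with 42.1 and 25.1 in ein5 dcl4. Its 3 groups did not overlap, and it was called lower in all 3 comparisons (limma adjusted p 0.0464 over Col-0 and 0.0295 over ein5 dcl4 for the triple mutant, 0.0329 for ein5 dcl4 over Col-0). These calls ended under 6, 8 and 3 of 15 alternatives in that order. AT3G32120 and AT5G29058, chosen after their values were seen, had no read in either library of ein5 dcl4 dcl2, against 26 and 15, and 46 and 29, in Col-0. All 4 calls against Col-0 ended without either Col-0 library or either ein5 dcl4 dcl2 library, and 10 and 8 members were lower without ein5 dcl4 library a and b. With equal table totals 805 and with equal miRNA totals 452 members were lower than in Col-0. At a mean of at least 10 units 3 members (1.02%) were higher and 19 (6.48%) lower, against 15.0% and 6.16% of all such loci, and the medians were -0.49 and -0.01.

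The median of all loci moved by -3.13 to 0.05 on the log2 scale for ein5 dcl4 over Col-0 under equal table totals, equal miRNA totals, trimmed-mean rescaling and voom. The members' median differed from it by -3.83 to -1.55 in these and by -2.19 in deposited units. For ein5 dcl4 dcl2 over ein5 dcl4 the members' median lay above that of all loci by 0.18 to 1.76 under the alternatives and by 1.75 in deposited units. For ein5 dcl4 dcl2 over Col-0 the difference was -2.24 to -0.30 under the alternatives and -0.28 in deposited units. At a mean of at least 10 units in deposited units the members' median differed from that of all loci by less in the comparisons with ein5 dcl4, by 0.48 for ein5 dcl4 dcl2 over ein5 dcl4 and by -0.51 for ein5 dcl4 over Col-0. It was -0.48 for ein5 dcl4 dcl2 over Col-0. These are descriptions of medians, and no test of the set was made.

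The protein-coding members with a mean of at least 5 units numbered 25. Besides those above, AT3G30820, a retrotransposon ORF-1 protein, held 28.7 and 11.2 units in ein5 dcl4, 15.4 and 3.80 in ein5 dcl4 dcl2 and 65.7 and 70.1 in Col-0 and was not called. AT5G34870, a zinc knuckle protein, held 19.2 and 13.9 units in ein5 dcl4, 29.0 and 32.3 in ein5 dcl4 dcl2 and 59.3 and 49.5 in Col-0, and fell below Col-0 in ein5 dcl4 (limma adjusted p 0.0112). AT3G32190, another myosin heavy chain-like gene, held 7.66 and 16.7 units in ein5 dcl4 and 33.3 and 35.2 in Col-0 and was lower in ein5 dcl4 as well (limma adjusted p 0.0371). AT2G10965, which overlaps AT2G10955, and AT2G10975 and AT3G31430 were also below Col-0 in ein5 dcl4 (limma adjusted p 0.0462, 0.0490 and 0.0375), and AT3G33528 was higher in ein5 dcl4 dcl2 than in ein5 dcl4 on 4 and 11 reads against 1 and 1 (0.0439). The call at AT3G33528 ended under 12 of 14 alternatives, that at AT3G32190 under 7 of 15, that at AT2G10965 under 7 of 15, that at AT2G10975 under 9 of 15 and that at AT3G31430 under 6 of 14. Each of these calls, with that at AT5G34870, ended without either Col-0 library. The same held for 27 of the 39 calls at named members, while 8 of the 39 ended under none of the alternatives. AT2G11010, AT3G30230, AT3G30520, AT3G31950, AT3G32180, AT3G32896, AT5G29070, AT5G32590, AT5G32613 and AT5G34869 were not called in any comparison. Without ERD5 and BR6OX2, all 193 other protein-coding members summed to 433 ± 56.4 units in ein5 dcl4, 437 ± 7.88 in ein5 dcl4 dcl2 and 695 ± 12.4 in Col-0 (SD, n = 2 each).

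The members with the miR854 sequence stood higher in ein5 dcl4 than the bulk of the set. Together they held 500 and 622 units in ein5 dcl4, 350 and 334 in ein5 dcl4 dcl2 and 467 and 499 in Col-0, so in deposited units the ein5 dcl4 libraries were just above those of Col-0 and both ein5 dcl4 dcl2 libraries were lowest. In reads they held 261 and 223, 205 and 176, and 2521 and 1944 in that order, so the place of ein5 dcl4 above Col-0 depends on the scale. The mean was above Col-0 in ein5 dcl4 at 7 of 9 members, with ratios from 0.771 to 1.49, and below ein5 dcl4 in ein5 dcl4 dcl2 at 9 of 9. By contrast, 54 of 279 members without a mature miRNA sequence and with a mean of at least 10 units were above Col-0 in ein5 dcl4, and these summed to 0.661 times Col-0. No miR854 member was called against Col-0, and 2 of 9 were lower in ein5 dcl4 dcl2 than in ein5 dcl4, beside 35.9% of all loci. AT5G32107 held 29.0 and 17.1 units in ein5 dcl4 dcl2 against 80.4 and 72.5 in ein5 dcl4 (limma adjusted p 0.0134), with 50.2 and 61.3 in Col-0. AT5G31719, which holds MIR854d, held 49.5 and 53.2 in ein5 dcl4 dcl2 against 80.4 and 92.0 in ein5 dcl4 (0.0482), with 71.1 and 77.8 in Col-0. AT5G29975, the largest of the group and 1 of the 5 largest members on chromosome 5, held 126 and 109 units in ein5 dcl4, 68.3 and 76.0 in ein5 dcl4 dcl2 and 85.9 and 94.7 in Col-0 without a call.
The 7 members with the miR855 sequence were below Col-0 in ein5 dcl4, as was the bulk of the set. They summed to 40.2 and 19.5 units in ein5 dcl4, 75.2 and 53.2 in ein5 dcl4 dcl2 and 79.8 and 78.0 in Col-0. In ein5 dcl4, 0 of 7 had a mean above Col-0, and 2 were called lower, beside 6.45% of all loci. These were AT3G30716 and AT5G30269 (limma adjusted p 0.0158 for the second). AT3G30218, AT3G30716, AT3G30763 and AT3G32902 had 0 or 1 read over both ein5 dcl4 libraries. Their Col-0 means were 2.02 to 8.23 units, while 3 reads are worth 5.75 and 8.37 units in ein5 dcl4. These groups of members were formed after their values were seen, are small, and share sequence, so their contrast is a description; a median of 8.17% of the 21-base stretches of the miR854 members is unique. How many of their reads are the mature sequences was not tested.

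**Figure D4:**
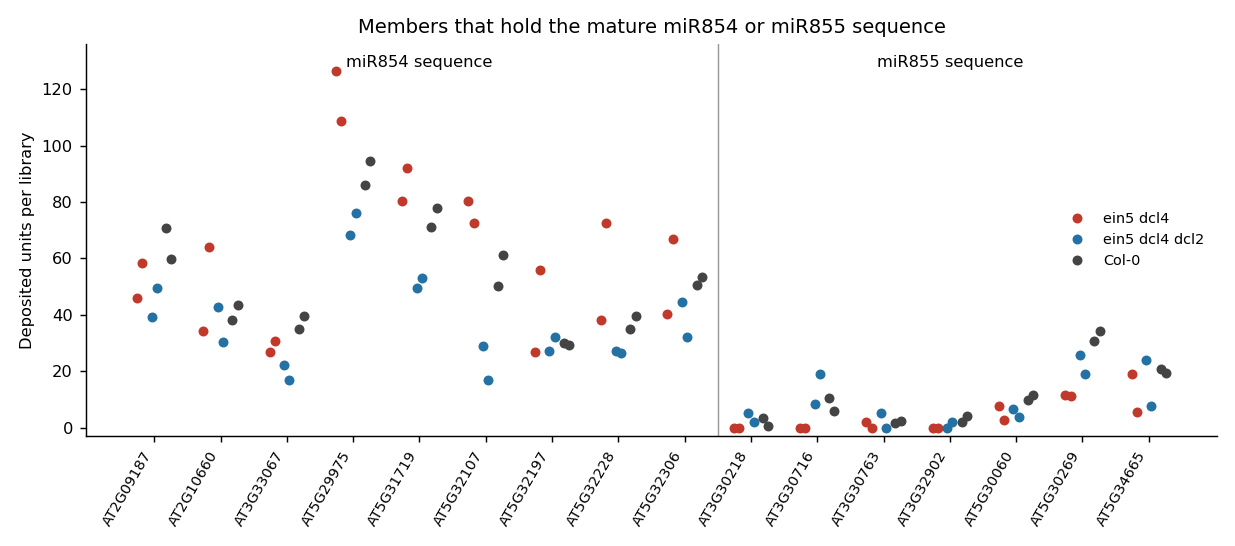
Units per library (y axis) at the 9 members that hold the mature miR854 sequence and the 7 that hold the miR855 sequence (x axis), with 2 points for each of ein5 dcl4, ein5 dcl4 dcl2 and Col-0. At miR854 members the ein5 dcl4 dcl2 mean is below that of ein5 dcl4 at 9 of 9, and at miR855 members the ein5 dcl4 mean is below Col-0 at 7 of 7.

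Along the chromosomes the order of the genotypes was much the same from one end of each range to the other. In steps of 0.25 Mb and without ERD5 and BR6OX2, ein5 dcl4 was below Col-0 in 25 of 26 steps, with ratios from 0.419 to 1.05, and ein5 dcl4 dcl2 was above ein5 dcl4 in 21 and below Col-0 in 23. The step with the ratio of 1.05, from 0.75 to 1 Mb on chromosome 5, held 32 members, of which 4 have the miR854 sequence (0.910 without them), and 6.88 units per kb of locus in ein5 dcl4, 5.23 in ein5 dcl4 dcl2 and 6.56 in Col-0. The lowest ratio was at the far end of chromosome 3, from 2.25 to 2.5 Mb, which holds AT3G33178, at 2.80 units per kb in ein5 dcl4, 5.11 in ein5 dcl4 dcl2 and 6.68 in Col-0. At the near end of chromosome 3, from 0 to 0.25 Mb, ein5 dcl4 dcl2 reached 4.45 units per kb against 1.02 in ein5 dcl4 and 1.73 in Col-0. AT3G30110 lies there and holds part of the excess over Col-0, but not all of it. It averaged 203 units in ein5 dcl4 dcl2, where the step summed to 436 and 437. In Col-0 it averaged 7.73 units, where the step summed to 178 and 162. Neighbouring members share sequence, so the steps are not independent.

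**Figure D5:**
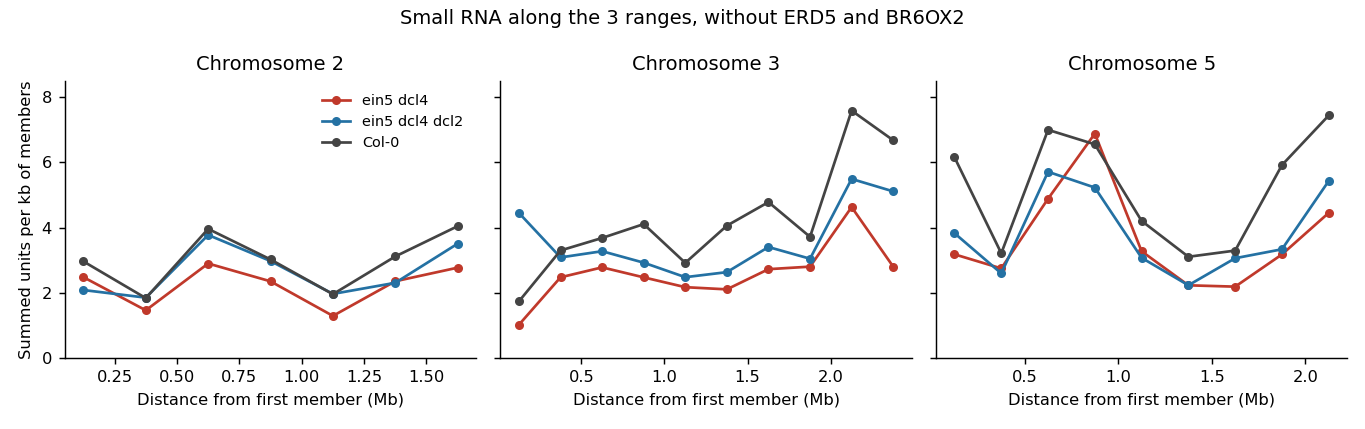
Summed units per kb of member length (y axis) in steps of 0.25 Mb from the first member of each range (x axis) for ein5 dcl4, ein5 dcl4 dcl2 and Col-0, without ERD5 and BR6OX2. Ein5 dcl4 runs below Col-0 in 25 of 26 steps.

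The ratio of ein5 dcl4 to Col-0 varied with how repeated the members are, and the miR854 members weighed in the most repeated class. Members with under 10% unique 21-base stretches had a summed ratio of ein5 dcl4 to Col-0 of 0.912, those from 10% to under 50% had 0.737, those from 50% to under 90% had 0.613 and those with at least 90% had 0.596. The first class holds 63 members, among them 5 of the 9 with the miR854 sequence. Without the miR854 members, an alternative chosen after seeing the data, the ratios were 0.668, 0.731, 0.609 and 0.596, so the order was no longer even. The ratio of ein5 dcl4 dcl2 to ein5 dcl4 was 0.814, 1.10, 1.32 and 1.35 with all members and 1.17, 1.11, 1.33 and 1.35 without the miR854 members, which turned the first class to above 1. That of ein5 dcl4 dcl2 to Col-0 lay between 0.743 and 0.810 in all 4 classes. The values per kb of the first class, miR854 members included, were 6.05 units in ein5 dcl4, 4.92 in ein5 dcl4 dcl2 and 6.63 in Col-0, against 1.49, 2.01 and 2.50 in the class of 290 members with at least 90% unique stretches. Across 1342 members the Col-0 level per kb had a Spearman correlation of 0.61 with GC content and of -0.27 with the unique share; the members share libraries and repeats, and these are descriptions.

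Fewer members had a read in the mutants than in Col-0. The shares were 54.1% and 45.3% in the ein5 dcl4 libraries, 65.1% and 62.5% in those of ein5 dcl4 dcl2 and 88.8% and 87.1% in Col-0, where 1 read is worth fewer units. With every library thinned to the units per read of ein5 dcl4 library b, the expected shares were 48.5% and 45.3% in ein5 dcl4, 57.0% and 56.6% in ein5 dcl4 dcl2 and 56.8% and 56.7% in Col-0. This thinning follows the deposited scale and is no correction for depth, since the libraries held 836879 to 1292727 reads. It kept a share of 0.0664 and 0.0920 of the reads in Col-0 libraries a and b. On that scale ein5 dcl4 was still lowest, and ein5 dcl4 dcl2 and Col-0 lay close together. Across 931 members tested, without ERD5 and BR6OX2, Spearman correlations of the means were 0.79 between ein5 dcl4 and Col-0, 0.63 between ein5 dcl4 dcl2 and ein5 dcl4 and 0.77 between ein5 dcl4 dcl2 and Col-0. Across the 291 of them with a mean of at least 10 units they were 0.68, 0.42 and 0.61 in that order.

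Loci of the same kind elsewhere had shares of lower calls in ein5 dcl4 like that of the members, while their sums varied. The pericentromere of chromosome 1 had 12 loci higher and 41 lower (14.3%) in ein5 dcl4 than in Col-0 of 287 tested and summed to 0.693 times Col-0. That of chromosome 4 had 15 higher and 53 lower (12.9%) of 412 tested. It summed to 0.999 times Col-0 with no gene left out, and the libraries overlapped. Of the tested members 13.3% were lower, and of all loci 6.45%. In ein5 dcl4 dcl2, 19.9% of the tested loci on chromosome 1 and 17.2% on chromosome 4 were higher than in ein5 dcl4. Of 2154 other pseudogenes tested 26.3% were higher, against 16.2% of the members and 11.3% of all loci. The 2849 other pseudogenes of the nuclear genome summed to 0.647 times Col-0 in ein5 dcl4 and to 0.997 times Col-0 in ein5 dcl4 dcl2, against 0.684 and 0.793 for the 1054 pseudogenes among the members; the differences between these sets were not tested.
Of 28 genes of small RNA pathways, 14 were tested. Of these, 8 were higher in ein5 dcl4 when set against Col-0, with a median log2 difference of 2.00 over the 14, beside 38.7% and 1.49 for all loci. In ein5 dcl4 dcl2 7 were lower than in ein5 dcl4, with a median of -1.95, beside 35.9% and -1.33 for all loci. The median over the 14 was -0.08 for ein5 dcl4 dcl2 over Col-0. As for all loci, the filter partly sets these counts and medians. NRPD1 passed it through ein5 dcl4 alone, on 2 and 1 reads there and 0 in every other library. AGO7 held 3 and 6 reads in ein5 dcl4, 0 and 1 in ein5 dcl4 dcl2 and 0 and 0 in Col-0. For AGO3 these were 10 and 8, 0 and 0, and 2 and 0, and for AGO2 218 and 106, 39 and 27, and 78 and 68. AGO2, an argonaute loaded with many siRNAs, averaged 357 ± 86.2 units in ein5 dcl4, 59.0 ± 10.8 in ein5 dcl4 dcl2 and 15.9 ± 2.13 in Col-0 (SD, n = 2 each). AGO4 had no read in any library, and DCL3 had 1 read in all. In the authors' deposited table, ein5 dcl4 was above Col-0 at 4 (0.498%) and below it at 1 (0.124%) of the 804 members with an adjusted p, against 19.2% and 0.892% of 8518 loci in all. For ein5 dcl4 over ein5 dcl4 dcl2, the authors' deposited table called 3 members (0.536%) higher and 6 (1.07%) lower of 560 with an adjusted p, against 15.3% and 4.17% of 4461 loci in all.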

How the data were processed

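AGO1-bound small RNA was measured in 6 libraries, 2 for each of 3 genotypes. The submitters' processing notes name the TAIR10 build, DESeq2, SAMtools 1.9 and Bowtie 1.2.2, with no role given. The authors deposited 1 table with a mean signal per genotype and locus, which the file headers call TPM, although 2 columns sum to more than TPM values can; the authors also deposited log2 fold changes with p-values. How the signal was scaled is not given in the sources used here. Each mean was split into whole reads of its 2 libraries. This worked for every value, but the libraries, called a and b, cannot be tied to replicate numbers.

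limma 3.58.1 in R 4.3.3 was fitted to log2(units + 1) over all 6 libraries, for loci that averaged 1 unit or more, with a trended prior, two-sided tests and Benjamini-Hochberg adjustment at 0.05. It was tested on simulated data. Sums were compared by exact permutation. Members named are the 5 largest per chromosome, per comparison and direction the 5 largest called differences among members with a mean of at least 5 units, libraries that do not overlap and at least 10 reads in the higher genotype, and all members with a mean of at least 5 units that are not pseudogenes. The rule for the members uses locus numbers, but the ranges and the lists were chosen with earlier results of these data known. Alternatives were other scalings, filters, pseudocounts and models, members with at least 90% unique 21-base stretches, and each library left out. P-values measure the spread between these libraries, pooled over all genotypes in the fit. Col-0 libraries thus also set the spread used for ein5 dcl4 dcl2 over ein5 dcl4. With only the 2 genotypes compared in the fit, that comparison had 56 members higher and 9 lower, against 151 and 36. Where a genotype had 0 reads in both libraries, its spread of 0 reflects the detection limit and was not measured. This held in ein5 dcl4 for 66 of the 124 members called lower than in Col-0.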

Additional observations from a re-analysis of the deposited data

How the results depend on the processing

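With 2 libraries a group, the unknown scale of the deposited values and 0 to 3 reads at many members in the mutants, counts of calls moved widely. Counts are given as higher, then lower. For ein5 dcl4 over Col-0 (8 and 124 as reported) they were 3 and 978 with equal table totals, where more members passed the filter, 5 and 872 with voom on reads, 3 and 48 at a mean of at least 10 units, 38 higher with equal miRNA totals and 30 lower among the 149 tested members with at least 90% unique stretches (20.1%, against 13.3% of the 933). For ein5 dcl4 dcl2 over ein5 dcl4 (151 and 36) they were 10 and 480 with equal miRNA totals, 37 and 23 of 293 at a mean of at least 10 units, where 343 and 703 of all 1852 loci were called, 28 and 8 among the 149 unique members, 56 and 9 with only the 2 genotypes in the fit, 92 higher with no filter, and 9, 20 and 9 lower with equal table totals, trimmed-mean rescaling and voom. For ein5 dcl4 dcl2 over Col-0 (1 and 3) they were 2 and 805 with equal table totals, 0 and 452 with equal miRNA totals, 3 and 743 with voom, 3 and 19 at a mean of at least 10 units, 10 and 21 with only the 2 genotypes, 0 lower with no filter and 0 and 0 among the unique members, where limma gave 10 and 16 at an unadjusted p under 0.05. Leaving out 1 library gave 3 to 23 and 0 to 182 for ein5 dcl4 over Col-0, 55 to 172 and 11 to 67 for ein5 dcl4 dcl2 over ein5 dcl4, and 0 to 2 and 0 to 10 for ein5 dcl4 dcl2 over Col-0; the lone library is then assumed to vary like the others.

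With equal miRNA totals the log2 ratios of the sums turned for ein5 dcl4 over Col-0 (0.23 on chromosome 2 and 0.12 on chromosome 5) and for ein5 dcl4 dcl2 over ein5 dcl4 (-3.81 and -3.96). On chromosome 3, leaving out the largest member turned ein5 dcl4 over Col-0 to -0.47 and ein5 dcl4 dcl2 over ein5 dcl4 to 0.21 (0.69 for shares), and leaving out ERD5 and BR6OX2, chosen after seeing the data, gave -0.70 and 0.44 (0.91 for shares). These members carry the chromosome 3 sum; the cause of the other shifts was not tested.

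Of the log2 differences of named members, 31 alternatives turned the direction. With equal table totals and voom, ein5 dcl4 over Col-0 was -0.45 and -0.50 at AT2G10410, -3.18 and -3.15 at AT2G10780, -2.11 and -2.52 at AT3G33528, -2.95 and -2.95 at AT5G29975 and -3.09 and -3.17 at AT5G32654. Likewise ein5 dcl4 dcl2 over Col-0 was -2.52 and -2.63 at AT2G10970, -2.04 and -2.21 at AT3G30716 and -2.60 and -2.67 at AT5G34869 (-2.95 with equal miRNA totals). With equal miRNA totals ein5 dcl4 dcl2 over ein5 dcl4 was -3.54 at AT2G10965, -3.33 at AT2G11450, -2.33 at AT3G30520, -3.48 at AT3G32190, -3.49 at AT3G33136, -3.06 at AT3G33178, -1.25 at AT3G33528, -3.84 at AT5G29075, -3.93 at AT5G31927, -3.38 at AT5G32613, -3.89 at AT5G34864, -2.65 at AT5G34869 and -2.93 at AT5G34870. At AT3G32190 it was -0.48 to 0.55 when 1 library was left out. No paired analysis was possible because the columns carry no replicate numbers.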
